A study of Homo sapiens with 16 samples.

Results

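Genes whose products carry new proteins into the endoplasmic reticulum (ER), attach N-glycans to them and fold them were described in HCT 116 cells, an established colorectal carcinoma line. They were picked by a rule on gene symbols that uses no measured value, although it was chosen with earlier results of these data known. The rule takes the SEC61, SEC62 and SEC63 translocation genes, TRAM genes, SSR1 to SSR4, SRP and SRP receptor genes, SPCS, EMC, ALG, PDIA and TXNDC genes, and further named genes such as RPN1, STT3A, P4HB, CALR and CANX. This gave 63 of the 8704 genes listed. In GENCODE release 44, 76 protein-coding genes carry such a symbol, and the other 13 (ALG10, ALG10B, ALG14, ALG1L2, ALG6, PDIA2, SEC61A2, SRP9, TRAM1L1, TXNDC16, TXNDC2, TXNDC8 and TXNDC9) were not analysed here.

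The cells expressed OsTIR1, a plant F-box protein, from a CMV promoter and carried mAID-tagged DDX3X, so that the auxin IAA (indole-3-acetic acid) causes degradation of this DEAD-box RNA helicase. The 4 conditions were all in this 1 background: lentiCTRL cells with DMSO, lentiCTRL cells with 500 µM IAA, and cells with IAA that expressed FLAG-tagged DDX3X (lentiDDX3X) or its Y-chromosome paralog DDX3Y (lentiDDX3Y), each for 48 h. The degron line is a single clone, and the lentiviral reading frames were in part codon-optimized, with expressing cells sorted by a linked mCherry2. Each condition had 2 replicates of ribosome profiling, which sequences the RNA fragments covered by ribosomes, and 2 of RNA-seq, 16 libraries in all. Cells for ribosome profiling received 100 µg/ml cycloheximide, which stalls elongating ribosomes, before harvest. The paper describes the RNA for RNA-seq as taken from undigested lysate. The values available are means of normalized counts that the authors pooled over both conditions of a table: 1 table for lentiCTRL with DMSO and IAA (8657 genes), and 1 for lentiDDX3X and lentiDDX3Y (7433 genes, termed complemented cells here). Therefore neither IAA and DMSO nor DDX3X and DDX3Y are compared below, no value has an SD over replicates, and the tables do not give the depth of each library.

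Proteins bound for the secretory pathway are usually recognised while still being made. The signal recognition particle (SRP) binds the emerging signal sequence and brings the ribosome to the Sec61 channel, where signal peptidase removes the signal and oligosaccharyltransferase (OST) transfers a preformed glycan that the ALG enzymes build on a lipid. Calnexin and calreticulin then hold the glycoprotein while protein disulfide isomerases (PDIs) form its disulfide bonds, and the unfolded protein response raises many of these genes when folding falls behind.

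One sequence element of that response, the ER stress response element (ERSE), is 2 blocks, CCAAT and CCACG, 9 bases apart, and ERSE-II is ATTGG and CCACG 1 base apart. The windows searched ran from 250 bases before to 50 bases after each RefSeq start site (GRCh38.p14), on both strands, and 56 of the 63 genes matched a window by symbol. ERSE was found for 4 of the 56 (7.14%), against 12 of the 6920 genes of the lentiCTRL table with a window (0.173%) and 25 of all 27305 genes with one (0.0916%). These sites are shown since they join a lectin pair, a disulfide isomerase and a glycan enzyme, with the fixed blocks in capitals:
CALR chr19:12938384-12938402, minus strand: CCAATgatggtcgaCCACG
CANX chr5:179698778-179698796, plus strand: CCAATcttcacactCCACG
PDIA6 chr2:10812853-10812871, minus strand: CCAATgagccgcagCCACG
ALG12 chr22:49918554-49918572, minus strand: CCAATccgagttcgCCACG

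ERSE-II was found for 2 of the 56 genes (3.57%), against 12 of the 6920 (0.173%). HYOU1, an ER chaperone of the Hsp70 family, held it at 2 places, and SDF2L1, a partner of ER Hsp40 proteins, at 1:
HYOU1 chr11:119057274-119057284, plus strand: ATTGGaCCACG
HYOU1 chr11:119057380-119057390, plus strand: ATTGGaCCACG
SDF2L1 chr22:21642114-21642124, minus strand: ATTGGtCCACG

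These matches are letters in a window and say nothing of binding. The CALR site lies just before the gene (chromosome 19, 12938578 to 12944489), as do those of ALG12, HYOU1 and SDF2L1. The CANX and PDIA6 sites lie within the span of their genes in GENCODE (chromosome 5, 179678628 to 179731641, and chromosome 2, 10783391 to 10837977), before a downstream RefSeq start site. The 4 genes with ERSE spanned nearly the whole range of levels. In lentiCTRL cells, RNA per kb of coding sequence was 8848 normalized counts for CALR, 8200 for CANX, 2068 for PDIA6 and 207 for ALG12, while the 50 genes with neither element had a median of 1282.

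From here on, levels and footprints per RNA are given. A level is the mean normalized count divided by the coding length of the canonical transcript, in counts per kb, so that genes can be compared. Footprints per RNA is the ribosome profiling mean over the RNA-seq mean of the same gene, given per 100 RNA reads. Its absolute size depends on the depth and scaling of both assays, so it is read against the median gene of its table, 4.57 in lentiCTRL and 5.56 in complemented cells. The error used is the difference of a gene between the tables, which share no library but also differ in condition. Its SD over the 57 genes found in both tables was 0.25 on the log2 scale for footprints per RNA (1.19-fold), 0.18 for RNA per kb and 0.22 for footprints per kb. A bias of a gene that is alike in both tables cancels in this difference. The spread of a pair used below therefore shows how closely a ratio repeats between tables. It does not cover such biases between different genes.

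Together the ER genes had high RNA levels and still higher footprint levels. Their median RNA per kb in lentiCTRL cells was 1461 against 602 for all genes, 2.43-fold higher, and their median footprints per kb was 89.6 against 24.6, 3.65-fold higher. In complemented cells the corresponding ratios were 2.26-fold and 2.82-fold. Among genes with a footprint mean above 100 in lentiCTRL cells, the excess was 0.28 on the log2 scale for RNA per kb and 0.59 for footprints per kb, in place of 1.28 and 1.87. The 63 genes were 0.728% of those listed, 0.999% of all RNA counts and 1.82% of all footprints, and the 57 in complemented cells were 0.767% of genes, 1.03% of RNA and 1.76% of footprints.

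**Figure D1:**
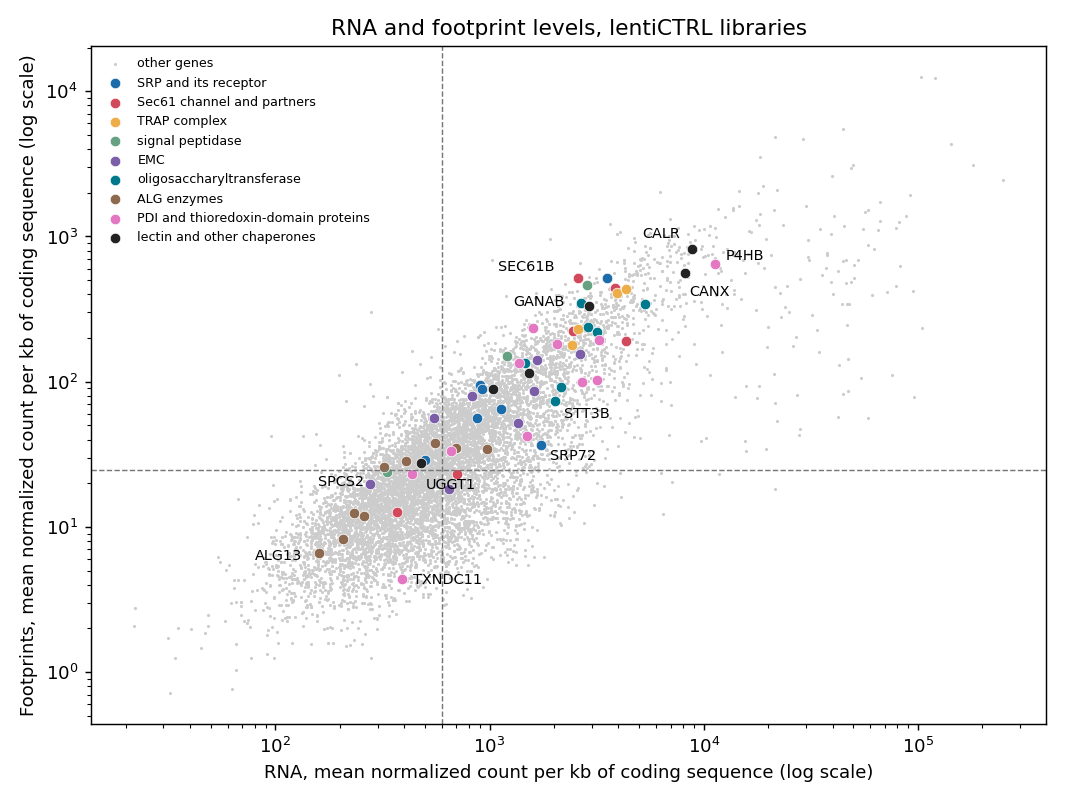
RNA (x axis) and footprints (y axis), both as the authors' mean normalized count per kb of coding sequence in the lentiCTRL libraries, on log scales. Each point is a gene, ER genes are coloured by group, and dashed lines mark the median gene (602 and 24.6), with P4HB, CALR and CANX at the upper end and ALG13 and TXNDC11 near the lower end.

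Footprints per RNA of the ER genes had a median of 6.88 in lentiCTRL cells, 1.51-fold that of the median gene, and 48 of 63 lay above it. In complemented cells the median was 7.81, 1.40-fold, with 47 of 57 above. In lentiCTRL cells 13 of the 63 lay above the 90th percentile of all genes and 1 below the 10th. The difference from the median gene was smaller among strongly covered genes: for the 29 ER genes with a footprint mean above 100, the median was 0.17 on the log2 scale above other genes with that coverage, in place of 0.59.

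The groups differed in this respect. Medians were highest for the signal peptidase subunits SPCS1 to SPCS3, 12.5 in lentiCTRL and 16.4 in complemented cells, from 3 and 2 genes. Signal peptidase subunits outside the symbol rule were lower, SEC11A with 2.47 and 4.73 and SEC11C with 5.10 and 7.47. Next came the TRAP complex (9.46 and 9.86), the Sec61 group (9.08 and 8.94) and the lectin and other chaperones (8.0 and 8.56). OST (6.96 and 7.98), EMC (6.88 and 8.46) and the SRP group (6.45 and 6.74) were intermediate. The PDI and thioredoxin-domain group (5.37 and 7.05) and the ALG enzymes (5.01 and 6.04) came closest to the median gene in lentiCTRL cells.

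**Figure D2:**
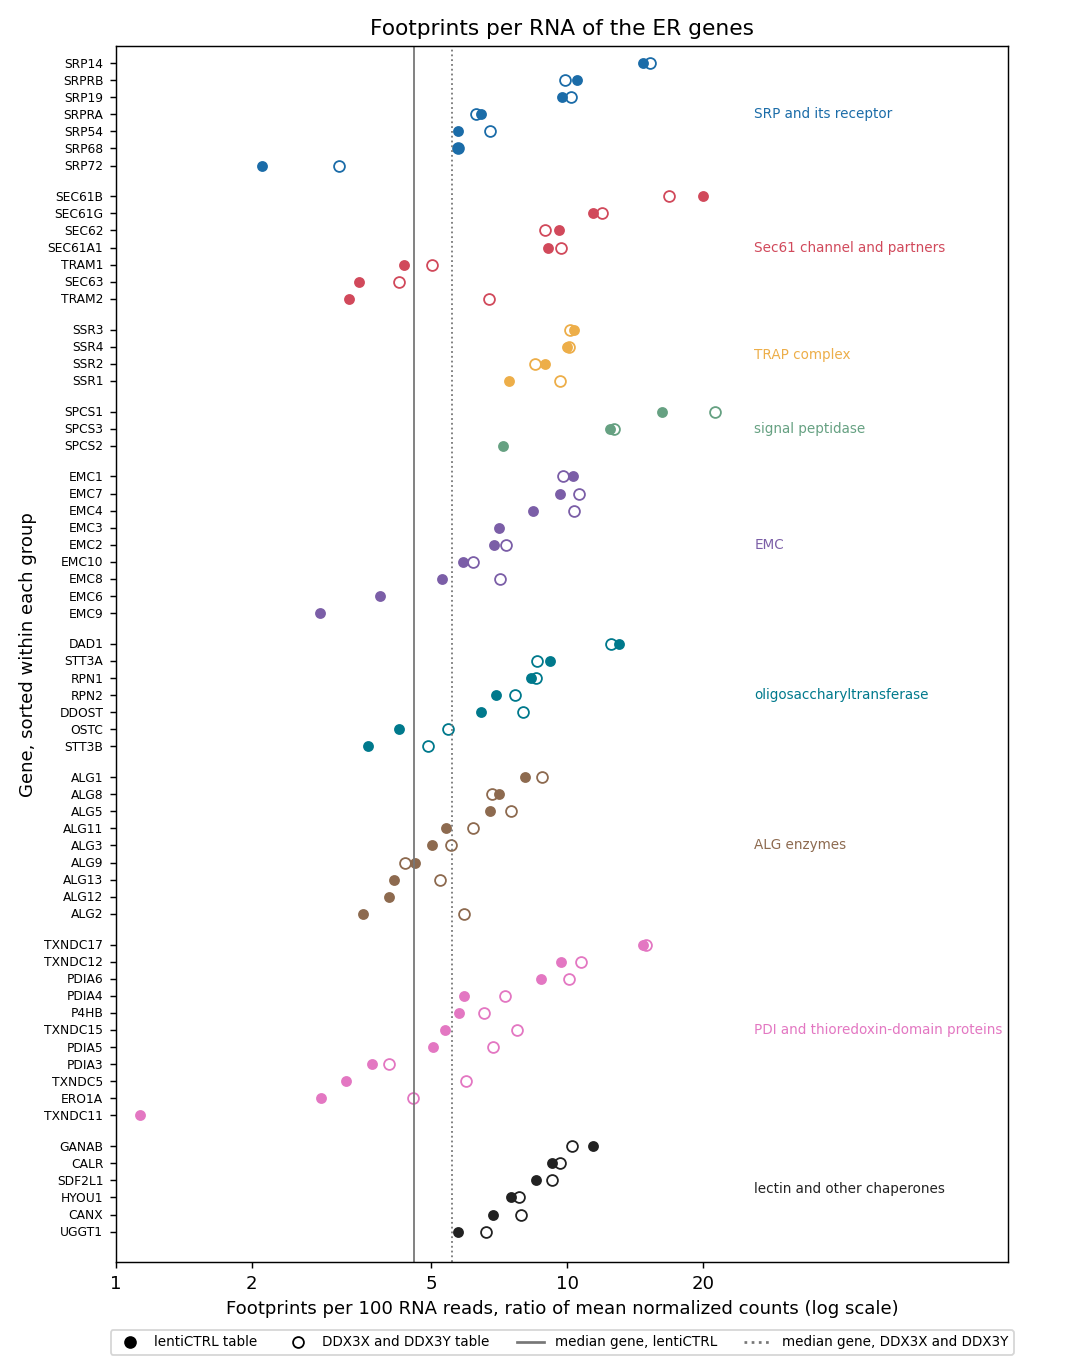
Footprints per 100 RNA reads (x axis, log scale) for each of the 63 ER genes (y axis), sorted within 9 groups. Filled points are lentiCTRL and open points are complemented (DDX3X and DDX3Y) means, and lines mark the median gene of each table (4.57 and 5.56). All lectin and other chaperones and all TRAP subunits lie above the line of their table, while the PDI and thioredoxin-domain group runs from 1.13 (TXNDC11) to 14.7 (TXNDC17) in lentiCTRL cells.

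At the targeting step, the SRP subunits were uneven in level. SRP14, which with its partner slows elongation until the ribosome is docked, had 3530.5 RNA and 519 footprints per kb in lentiCTRL cells and 3827 and 584 in complemented cells. SRP54, the GTPase that binds the signal sequence, had 502 and 28.8, then 630 and 42.5. Thus SRP14 exceeded SRP54 7.03-fold in RNA and 18.0-fold in footprints in lentiCTRL cells, and 6.08-fold and 13.8-fold in complemented cells. SRP14 shared 31.0% of its 28-nt coding windows with other places in the genome and SRP54 2.56%. How reads with several positions were counted is not given in the sources used here, so values of genes with many shared windows are uncertain.

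SRP72 stood lowest in the group, with 2.11 footprints per 100 RNA reads in lentiCTRL and 3.13 in complemented cells, although its partner SRP68 had 5.72 and 5.74. SRP72 had the higher RNA level of this pair in lentiCTRL cells (1733 against 1129 per kb), whereas its footprints were lower (36.6 against 64.6 per kb). In complemented cells the pair was level in RNA (1546 against 1559 per kb), and SRP72 was again lower in footprints (48.3 against 89.5 per kb). SRP72 shared 25.4% of its 28-nt windows and 2.72% of its 65-nt windows, and its value corrected for the windows found elsewhere was 2.75. SRP19, which helps assemble the particle, had 9.75 and 10.2, with 37.5% of its windows shared.

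The receptor subunits, SRPRA and the membrane-anchored SRPRB, had nearly equal RNA levels (877 and 905 per kb in lentiCTRL, 1003 and 921 in complemented cells). Their footprints were 56.6 and 95.1 per kb, then 63.1 and 91.3, a ratio of 1.68-fold and 1.45-fold in favour of SRPRB. Both ratios exceeded the 1.24-fold spread (1 SD) of a pair of genes between tables. Against genes of like coding length, however, the pair was level in footprints per RNA, as given below.

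At the channel, RNA levels of the Sec61 trimer lay within 1.58-fold of each other in lentiCTRL cells, with 2445 per kb for the pore subunit SEC61A1, 2580 for SEC61B and 3866 for SEC61G. Footprints ranged over 2.32-fold, with 222, 516 and 441 per kb. In complemented cells the RNA levels were 2494, 2956 and 4540.4, and the footprints 242, 497 and 543. SEC61A1 had the lowest footprint level of the trimer in both tables, and the longest coding sequence (1428 nt against 288 and 204 nt). SEC61B (chromosome 9, 99222064 to 99230615 on GRCh38) had the highest footprints per RNA of all ER genes under the symbol rule in lentiCTRL cells. Its value was 19.98 per 100 RNA reads or 4.37-fold the median gene, and 16.8 in complemented cells. It shared 21.8% of its 28-nt windows.

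Partners of the channel were set apart from the trimer. SEC62, which assists transport after synthesis, had 9.60 and 8.94 footprints per 100 RNA reads, while SEC63, the J-domain protein that recruits the chaperone BiP, had 3.45 and 4.24 with 31.8% of its windows shared. TRAM1, which lies beside the nascent chain, exceeded its paralog TRAM2 in RNA per kb 6.19-fold (4352 against 703) in lentiCTRL and 7.21-fold (4509 against 626) in complemented cells. In footprints per kb the excess was 8.22-fold and 5.40-fold. TRAM2 had the largest difference between tables of the ER genes, 3.28 footprints per 100 RNA reads in lentiCTRL and 6.71 in complemented cells.

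All 4 TRAP subunits, which assist the channel with some signal sequences, were highly expressed, and all were above the 90th percentile of all genes for RNA and for footprints per kb in lentiCTRL cells. Their RNA levels were 2422 (SSR1), 2586 (SSR2), 3942 (SSR3) and 4337 (SSR4) per kb, and their footprints 179.6, 232, 409 and 434 per kb. SSR3 and SSR4 were thus above SSR1 and SSR2 on both scales. The order SSR3 and SSR4 above SSR1 and SSR2 also held in complemented cells, where footprints were 251, 257, 457 and 406 per kb and the whole range was 1.82-fold.

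Of the signal peptidase accessory subunits, SPCS1 had 2861 RNA and 465 footprints per kb and SPCS3 had 1210.2 and 151 in lentiCTRL cells. In complemented cells SPCS1 had 2898 and 616, and SPCS3 had 1284 and 163, so the excess of SPCS1 in footprints was 3.09-fold and 3.78-fold. SPCS1 had the highest footprints per RNA of all ER genes under the symbol rule in complemented cells, 21.3 per 100 RNA reads, after 16.3 in lentiCTRL cells. SPCS2 was listed in lentiCTRL cells only, with 332 RNA and 23.9 footprints per kb, and 89.9% of its 28-nt windows and 75.7% of its 65-nt windows occur elsewhere in the genome. Corrected for these windows, its levels were 1369 and 236 per kb, between those of SPCS1 and SPCS3, so its low level as deposited cannot be set against theirs.

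The ER membrane protein complex (EMC) inserts many transmembrane segments, and 9 of its 10 subunits were listed under an EMC symbol. Their levels were more uneven than those of the SRP receptor and the 4 OST core subunits under the symbol rule. These were the other complexes in which no subunit listed had more than 10% of its windows shared. These hold only 2 and 4 genes, and a range widens with the number of genes. EMC10 was highest, with 2657 RNA and 156 footprints per kb in lentiCTRL cells, EMC3 lowest in RNA with 278 and EMC9 lowest in footprints with 18.3. The ratio of highest to lowest was 9.57-fold in RNA and 8.54-fold in footprints. Over the 6 subunits listed in complemented cells, without EMC3 and EMC9, it was 4.54-fold and 3.20-fold. No EMC gene had more than 4.10% of its 28-nt windows elsewhere.

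Between those ends, EMC4 (1674 RNA and 141 footprints per kb), EMC8 (1620.4 and 85.7), EMC6 (1355 and 52.0) and EMC7 (829 and 79.8) were above EMC1 (550 and 56.7) and EMC2 (548 and 37.7) in RNA. EMC1, the largest subunit, had the highest footprints per RNA of the complex in lentiCTRL cells, 10.3 per 100 RNA reads, but in complemented cells its 9.81 came after EMC7 (10.6) and EMC4 (10.3). EMC9 had 2.84 and EMC6 3.84 in lentiCTRL cells. EMC3, EMC6 and EMC9 had footprint means of 15.4, 17.2 and 11.4 there and are among the 6 ER genes listed for lentiCTRL cells only. In the complemented table the smallest footprint mean was 20 against 10 in the lentiCTRL table. The other 3 genes of lentiCTRL cells only were ALG12, SPCS2 and TXNDC11. For the 6 subunits in both tables, EMC10 was the highest in RNA in both.

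**Figure D3:**
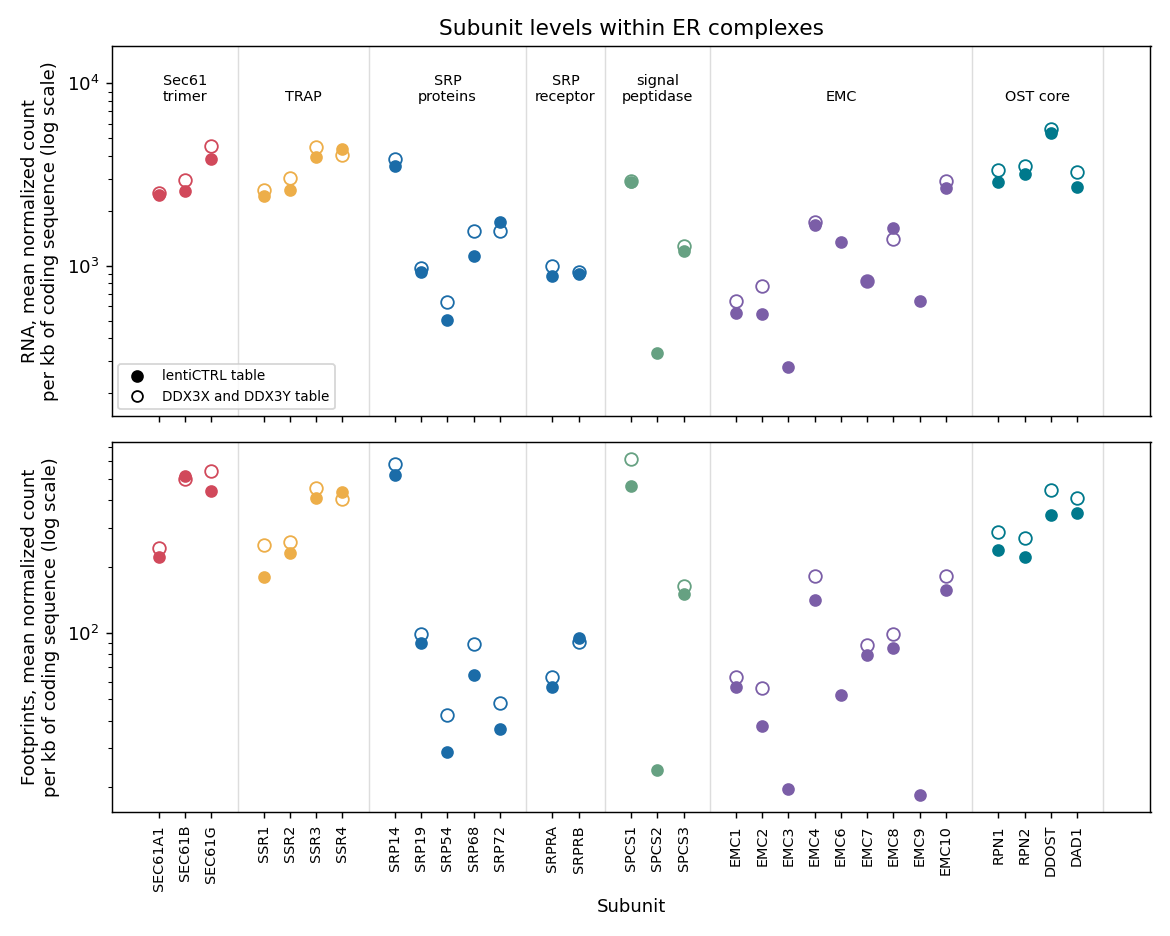
RNA (upper panel) and footprints (lower panel) of each subunit, as the authors' mean normalized count per kb of coding sequence on log scales, for 7 complexes. Filled points are lentiCTRL and open points are complemented means. In lentiCTRL cells the 4 OST core subunits under the symbol rule lie within 1.98-fold of each other in RNA while EMC spans 9.57-fold.

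Among OST subunits under the symbol rule, RPN1, RPN2, DDOST and DAD1, taken here as the shared core, were close in level. RNA per kb in lentiCTRL cells was 2870.1, 3169.9, 5308 and 2686, a range of 1.98-fold, and footprints were 238, 221, 343 and 350.1 per kb, a range of 1.59-fold. DDOST had 1.98-fold the RNA of DAD1, yet their footprints differed by 1.02-fold, and in complemented cells by 1.09-fold. Footprints of the core in complemented cells were 287, 269, 446 and 409.6 per kb, so the range was 1.66-fold. The small OST subunits OST4 and TMEM258, outside the symbol rule, were above all 4 in footprints. They had 1077 and 469 per kb in lentiCTRL cells, then 1344 and 528. The narrow range therefore holds only for the 4 genes that the rule takes in.

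The catalytic subunits STT3A and STT3B gave opposite orders on the 2 scales. STT3A, which glycosylates chains as they enter the channel, had 1461 RNA per kb in lentiCTRL cells and STT3B, which acts on sites that were missed, had 2025. Footprints were 134 per kb for STT3A and 73.3 for STT3B, 1.83-fold higher for STT3A. In complemented cells RNA was 1693 and 1932 per kb, a 1.14-fold difference within the 1.19-fold spread (1 SD) of a pair, and footprints were 145 and 95.1, 1.53-fold higher for STT3A. Footprints per RNA of STT3A were therefore 2.54-fold and 1.74-fold those of STT3B, both beyond the 1.28-fold spread (1 SD) of a pair between tables. Against genes of like coding length the difference was smaller, as given below. OSTC, found in the STT3A complex, had 4.25 and 5.45 footprints per 100 RNA reads, with 50.2% of its 28-nt windows shared and 8.10 after correction in lentiCTRL cells.

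The ALG enzymes were the only group whose RNA was below the median gene, with a median of 322 per kb against 602, and 2 of 9 above it in lentiCTRL cells (1 of 8 in complemented cells). ALG2, a mannosyltransferase of the cytosolic face, was highest in RNA (970.0 per kb), and ALG13, part of the GlcNAc transferase that adds the second sugar, lowest (161). In footprints per kb, ALG5, which makes the glucose donor, was highest at 37.6 and ALG13 lowest at 6.65. Footprints per RNA ran from 3.53 per 100 RNA reads for ALG2 to 8.06 for ALG1, the first mannosyltransferase, which shared 34.9% of its windows. ALG2 moved to 5.89 in complemented cells, and ALG12, a mannosyltransferase of the lumenal face, was listed at 4.02 in lentiCTRL cells.

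In the disulfide group, P4HB (PDI itself) was the most abundant ER gene in RNA, with 11232 per kb in lentiCTRL and 12727 in complemented cells, and its footprints were 647 and 833 per kb. TXNDC17, a cytosolic protein of the thioredoxin fold that the symbol rule takes in, had the highest footprints per RNA of the group, 14.7 and 14.96 per 100 RNA reads, with 13.5% of its windows shared. TXNDC11, an ER thioredoxin-domain protein, had the lowest value of all ER genes, 1.13, from a footprint mean of 12.7 and an RNA mean of 1121.

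ERO1A, the oxidase that recharges PDI, also had few footprints for its RNA, 2.85 and 4.55 per 100 RNA reads. PDIA3, the isomerase that works with calnexin and calreticulin, had 3.69 and 4.03, below the median gene of each table. With 67.3% of its 28-nt windows and 35.8% of its 65-nt windows found elsewhere, its corrected values were 7.25 and 7.91, above the median gene of the same scale 1.51-fold and 1.34-fold. The side of the median on which PDIA3 lies therefore depended on how shared reads were counted. PDIA4 (5.91 and 7.27) and PDIA6 (8.76 and 10.1), with 1.36% and 1.78% of windows shared, were above the median gene in both tables.

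All 6 lectin chaperones and other chaperones were above the median gene in footprints per RNA in both tables. Calreticulin (CALR) and calnexin (CANX) had 8848 and 8200 RNA per kb in lentiCTRL cells and 9644 and 7822 in complemented cells. CALR had the highest footprint level of all ER genes under the symbol rule, 818 and 929 per kb. CANX had 562 and 617 per kb, so the ratio was 1.46-fold and 1.50-fold. GANAB, the catalytic subunit of glucosidase II that trims the glycan, had the highest footprints per RNA of the group, 11.4 and 10.2 per 100 RNA reads. UGGT1, which returns a glucose to misfolded glycoproteins, had the lowest, 5.74 and 6.60, and was the longest ER gene at 4665 nt of coding sequence.

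Coding length ran with footprints per RNA over all genes. Pearson's r of the log2 values was −0.52 over 8646 genes and −0.48 over the 63 ER genes in lentiCTRL cells, and −0.55 over 7422 and −0.62 over 57 in complemented cells. These are correlations across genes that share libraries. Genes were therefore also set against the median gene of the same of 5 length ranges. The median of the ER genes was then 0.42 on the log2 scale in lentiCTRL cells, with 47 of 63 above 0, and 0.35 in complemented cells, with 42 of 57, in place of 0.59 and 0.49.

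The order of the groups changed with this step. The lectin and other chaperones had a median of 0.97 in lentiCTRL and 0.78 in complemented cells, with 6 of 6 above 0 in both tables. SPCS1 to SPCS3 had 0.79 (3 of 3) and 0.85 (2 of 2). EMC fell to 0.02 and 0.13 and the ALG enzymes had 0.15 and 0.13, so the medians of these groups lay near 0. Single EMC genes lay far to either side, with 5 of 9 and 3 of 6 above 0. GANAB (2.08, a 4.23-fold excess) and EMC1 (1.93, 3.81-fold) stood highest in lentiCTRL cells, and EMC6 (−1.29), EMC9 (−1.26) and TXNDC11 (−1.26) lowest. On this scale SRPRA and SRPRB (1914 and 813 nt) were level, with 0.63 each in lentiCTRL and 0.29 and 0.32 in complemented cells. SRP14 and SRP54 had 0.65 and 0.46, then 0.55 and 0.39. SRP54 (1512 nt) lies just past the edge at 1500 nt, where the lentiCTRL median falls from 0.16 to −0.14, so its value depends on the edge. DDOST and DAD1 had 0.33 and 0.47, then 0.36 and 0.27. SEC61A1, SEC61B and SEC61G had 0.83, 1.09 and 0.28, then 0.64, 0.69 and 0.20, so SEC61A1 was above SEC61G on this scale. STT3A stayed above STT3B in lentiCTRL cells, with 1.14 against 0.42. In complemented cells, 0.74 against 0.50 was within the 1.28-fold spread (1 SD) of a pair. STT3A (2115 nt) and STT3B (2478 nt) lie on either side of the edge at 2400 nt. There the lentiCTRL median falls from −0.14 to −0.76, so their values on this scale depend on the edge.

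**Figure D4:**
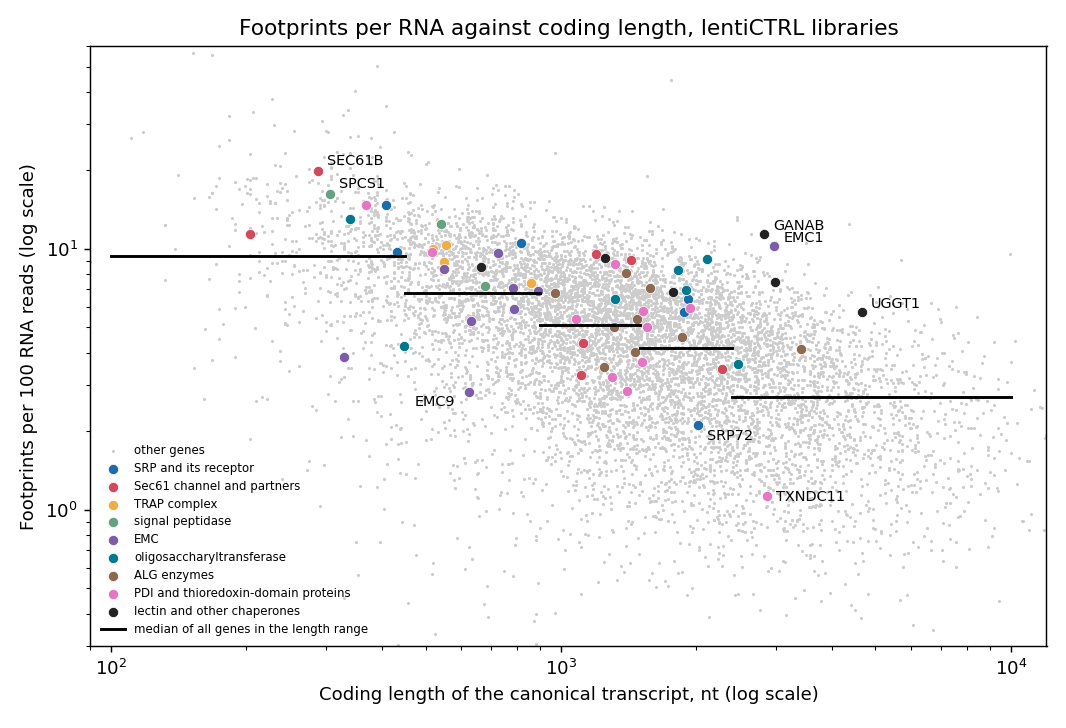
Footprints per 100 RNA reads (y axis) against coding length in nt (x axis) in lentiCTRL cells, both on log scales. Each point is a gene, ER genes are coloured by group, and black bars are the median of all genes in 5 length ranges, which falls with length while GANAB, EMC1 and UGGT1 stay above their bar.

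The RNA around the start codon and the 5′ UTR was described for 62 of the 63 genes with a usable annotated 5′ UTR. A purine at position −3 from the start codon was found in 60 of them (96.8%), against 88.4% of all genes, and a G at position +4 in 44 (71.0%), against 55.1%. The median 5′ UTR was 67 nt long, against 120 nt for all genes, and its median GC content was 68.8%, against 68.5%. Footprints per RNA fell with the GC content of the 5′ UTR with r = −0.32 over the 62 genes and −0.17 over 8486 genes in lentiCTRL cells, and −0.22 over 56 and −0.09 over 7286 in complemented cells.

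Between the tables the ER genes kept their places closely, with r = 0.94 for log2 footprints per RNA over 57 genes and 0.96 over all 7386 shared genes. Differences (complemented minus lentiCTRL, the median shared gene set to 0) ranged from −0.47 to 0.82 on the log2 scale, and 18 of 57 were above 0. Well covered genes in general were alike in this. Of the 1312 shared genes with a footprint mean above 100 in lentiCTRL cells, 350 were above 0, with a median of −0.13 against −0.08 for the ER genes. TRAM2 (0.82), TXNDC5 (0.67, 3.23 to 5.96 footprints per 100 RNA reads), ALG2 (0.52) and ERO1A (0.46) had the largest positive differences, and SEC61B (−0.47), GANAB (−0.38) and SEC62 (−0.32) the largest negative ones. Over the shared genes the difference went with 5′ UTR GC content at r = 0.36 (n = 7239), and over the ER genes at 0.46 (n = 56). It also went with the footprint mean in lentiCTRL cells, at Spearman's rho = −0.34 over the shared genes (n = 7386) and −0.25 over the ER genes (n = 57). That mean is itself part of the difference. Genes with a mean up to 20 there were shared only if they reached 20 in complemented cells, and 867 of these 1111 were above 0. A negative relation with coverage is therefore partly built in, also in the counts by footprint mean above, and nothing is concluded from it. The tables differ in viral construct, in IAA (given to all complemented cells but only some lentiCTRL cells) and in normalization, which cannot be told apart here.

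Markers of cell types were also looked up. Of 10 colorectal epithelial markers, 7 were listed in each table, with a median RNA level of 3399 per kb in lentiCTRL cells. There 5 of the 7 were above the median gene (602 per kb), while CDH1 (356) and CDX2 (371) were below it. CDX1, VIL1 and LGALS4 were listed in neither table. Of 12 markers of other cell types, only COL1A1 was listed, at 115 per kb in lentiCTRL cells, and none in complemented cells.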

How the data were processed

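Ribosome profiling and stranded, rRNA-depleted RNA-seq of HCT 116 cells were used, 16 libraries in 4 conditions. Adapters were removed and UMIs collapsed by the authors, who dropped reads from rRNA and small RNAs, aligned the remainder to hg38 and, with Ribo-seQC, counted coding-sequence reads above 24 nt. Cutadapt, Bowtie2 and STAR (2.6.0a) are named in the submitters' processing notes. No annotation release is given in the sources used here, nor the version of DESeq2 that the authors ran. Both tables deposited by the authors give, per gene, 1 DESeq2 mean of normalized counts for RNA and 1 for footprints, over the libraries of both conditions. They also hold the fold changes, adjusted p-values and classes of the authors' comparisons, which were not used. No test was therefore made, and values per library were not analysed here.

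Coding lengths, 5′ UTRs and coordinates are from the canonical transcript in GENCODE release 44 (GRCh38), found for 8646 of 8657 and 7422 of 7433 genes. Windows of 28 and 65 nt of each coding sequence were searched in the genome for copies elsewhere, and means were divided by the share of windows found once as an alternative. No pseudocount or filter was used. Python 3.11.15, pandas 2.3.3 and numpy 2.4.6 were used, and scripts were tested on simulated data. The genes, groups and lists were chosen with earlier results of these data known. Named genes were every subunit of the fixed complexes, the highest and lowest of each group in footprints per RNA, the highest in footprints per kb, paralog pairs, genes in 1 table only and, outside the rule, the 2 highest and 2 lowest. PDIA4, PDIA6, TXNDC5, ERO1A, SEC62, SEC63, OSTC, ALG2, and the genes with an ERSE were named for their values or sites after these were seen.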

Additional observations from a re-analysis of the deposited data

How the results depend on the processing

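On the log2 scale, relative to the median gene in lentiCTRL cells, the ER genes had medians of 0.59 for footprints per RNA, 1.28 for RNA per kb and 1.87 for footprints per kb. With only genes of a footprint mean above 100 these were 0.17, 0.28 and 0.59, and in complemented cells footprints per kb was 1.49. Under all alternatives run, the medians stayed positive, between 0.17 and 0.83, 0.28 and 1.37, and 0.59 and 1.99. Above a footprint mean of 100, the SRP group reversed (−0.046 for footprints per RNA, −0.97 for RNA per kb and −1.19 for footprints per kb), as did EMC for RNA (−0.87) and footprints per kb (−0.64), and footprints per RNA of the PDI and thioredoxin-domain group went from 0.23 to −0.21. The alternative itself retains few members of these groups. It also selects all genes on the footprint mean, which is part of both footprint measures, so the median gene used for centring moves too. A change of sign there gives a place among strongly covered genes only. Of 235 recomputed values, 154 moved by less than 1 SD of a gene between the tables. The ALG enzymes lay near 0 and changed sign in footprints per RNA with means above 20 (0.13 to −0.014) and, from 0.080 in footprints per kb, in complemented cells (−0.38), with union exons (−0.074) and without genes of shared windows (−0.21). The share of RNA stayed near 1% (0.999% and 1.03%). A pseudocount of 1, means above 20 and centring on the ratio of summed means moved none of their 30 values by more. The union of coding exons, the correction for shared windows and the exclusion of genes with over 10% of windows shared were chosen after seeing the data. The RefSeq protein length planned in place of the coding length was not run. No paired analysis was possible because the tables hold no value per library, and no replicate could be left out for the same reason. Depth limits the 7 ER genes with footprint means up to 20 most.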

Other observations

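A list of 52 further genes of ER quality control and the unfolded protein response, chosen with earlier results of these data known, had 48 members in lentiCTRL and 47 in complemented cells. Its median footprints per RNA was 6.34 per 100 RNA reads (33 of 48 above the median gene) and 7.53 (37 of 47). The highest were OST4 and TMEM258, both small OST subunits, with 26.6 and 20.8 in lentiCTRL and 32.6 and 20.1 in complemented cells. The lowest were CRELD2, an ER protein induced by stress, with 1.87 and DNAJC10, a disulfide reductase with a J domain, with 1.92 in lentiCTRL cells. CRELD2 had 5.03 and DNAJC10 2.64 in complemented cells. HSPA5 (BiP), the main ER Hsp70, had 7.69 and 7.76, and HSP90B1, the ER Hsp90, 5.58 and 6.65. HSPA5, HSP90B1, SEC11A and SEC11C were chosen after their values were seen.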
